A study of Mus musculus with 16 samples.

Results

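The miR-23, miR-27 and miR-24 clusters were followed as 5 mature miRNAs, miR-23a-3p, miR-27a-3p, miR-23b-3p, miR-27b-3p and miR-24-3p, chosen by name from the 1907 mature mouse miRNAs of the deposited table. All 5 were found. The RNA came from extracellular vesicles, small membrane-bound particles shed by cells, that were collected from the fluid used to wash the airways of mice (bronchoalveolar lavage). There were 16 small RNA libraries in 4 groups of 4: C57BL/6 wild type and C57BL/6 Sdc1-/- mice (knockout below), each either normal, given PBS, or injured with bleomycin over 21 days. Sdc1 encodes syndecan-1, a heparan sulfate proteoglycan carried by epithelial cells. Bleomycin, a DNA-damaging drug, causes lung injury followed by scarring. The labels do not give the age of the mice, which cells lacked Sdc1, how many mice went into a library or whether each library came from its own mouse, so p-values measure the spread between these libraries, which may be technical.

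Mice carry a pair of these clusters. In each, the hairpins of a miR-23, a miR-27 and a miR-24 lie in a row, are made from 1 primary transcript and are cut into separate mature miRNAs. The clusters are known for regulating blood vessel growth in endothelial cells, miR-27 for restraining fat cell differentiation, and miR-24 for repressing cell-cycle genes such as Myc. A mature miRNA finds its targets mainly through its seed, bases 2 to 8, so members with the same seed are expected to share targets.

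In RefSeq, on build GRCm38.p6, cluster a lies on the plus strand of chromosome 8, with Mir23a at chr8:84208518-84208592, Mir27a at chr8:84208672-84208758 and Mir24-2 at chr8:84208815-84208921, a run of 404 bases. Cluster b lies on the plus strand of chromosome 13, with Mir23b at chr13:63300484-63300557, Mir27b at chr13:63300712-63300784 and Mir24-1 at chr13:63301208-63301275, a run of 792 bases. In the GENCODE annotation, Mir23a and Mir27a overlapped no other gene and Mir24-2 overlapped an exon of the lincRNA Gm26532 on the same strand. Mir23b lay in an intron of the protein-coding gene 2010111I01Rik (Aopep) on the same strand, while Mir27b and Mir24-1 overlapped an exon of at least 1 of its transcripts. All 3 hairpins of cluster b also lay in an intron of Fancc on the opposite strand.

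**Figure D1:**
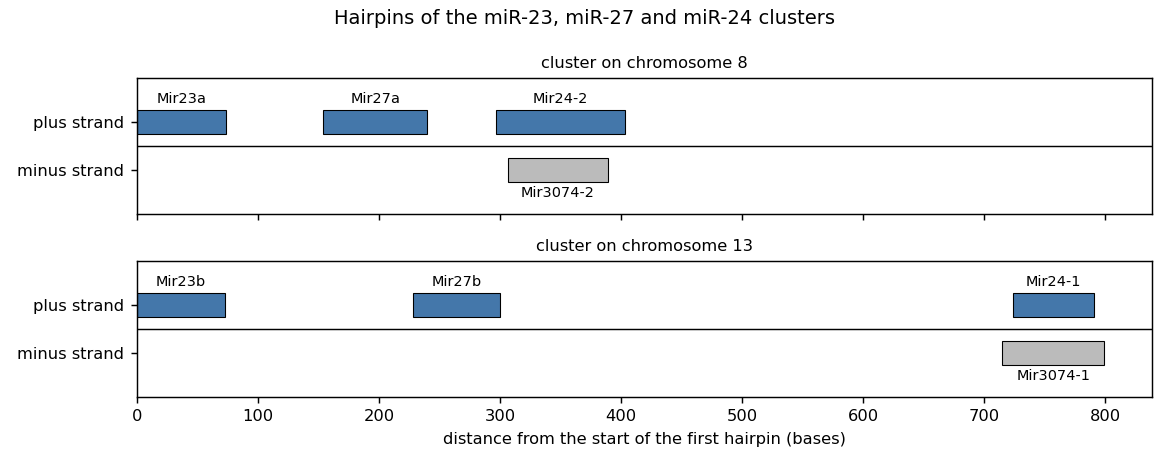
Position of the hairpins in both clusters, as distance in bases from the start of the first hairpin, with plus-strand hairpins in blue and the antisense Mir3074 hairpins in grey. Cluster a spans 404 bases and cluster b 792 bases, and each miR-24 hairpin has a Mir3074 hairpin on the other strand.

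RefSeq held the mature sequence of 4 of the 5 members, all but miR-23b-3p. They are shown 5′ to 3′ with the seed in capitals, because the seed decides which members can stand in for each other.
mmu-miR-23a-3p: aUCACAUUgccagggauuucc
mmu-miR-27a-3p: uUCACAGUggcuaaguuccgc
mmu-miR-27b-3p: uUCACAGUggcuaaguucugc
mmu-miR-24-3p: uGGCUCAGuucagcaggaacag
The miR-27 pair had the same seed and differed at 1 of 21 bases, C19U (the base of miR-27a-3p first, positions counted from 1 at the 5′ end). The miR-24-3p sequence was the same from both clusters, so its reads cannot be assigned to either. No other tested miRNA with a RefSeq sequence carried any of these 3 seeds.

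The hairpins of the miR-23 pair are shown whole, with their longest shared run of 20 bases in capitals, because reads from this stretch fit both.
Mir23a: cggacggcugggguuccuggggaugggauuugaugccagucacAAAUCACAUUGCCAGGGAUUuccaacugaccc
Mir23b: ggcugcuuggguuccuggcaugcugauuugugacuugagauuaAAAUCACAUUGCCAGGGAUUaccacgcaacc
How the counting treated reads that fit both copies is not given in the sources used here, so the split within the miR-23 pair and within the miR-27 pair is uncertain.

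A further limit concerns miR-24-3p. Its counts were identical, read for read, to those of miR-3074-5p in all 16 libraries, and miR-24-2-5p was identical to miR-3074-2-3p. The Mir3074 hairpins lie on the opposite strand of the miR-24 hairpins, and miR-3074-5p is complementary to miR-24-3p over 20 bases, shown in capitals.
mmu-miR-24-3p: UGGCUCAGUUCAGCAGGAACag
mmu-miR-3074-5p: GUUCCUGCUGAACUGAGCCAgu
In all, 7 pairs of miRNAs with at least 1000 reads had identical counts, and the 4 pairs with a RefSeq entry for both lay on opposite strands of 1 place. The sources used here give no strand setting, so reads of miR-24-3p and miR-3074-5p cannot be told apart, and the same values enter the total of each library a second time as miR-3074-5p, at up to 0.917% of it.

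Values are CPM, reads per 1000000 miRNA reads of a library, so each is a share of the reads and holds no absolute amount. A smaller contribution of a cell type and less of a miRNA per cell or vesicle cannot be told apart. Depth recovered from the table ran from 1094908 to 12837837 reads. The 3 normal libraries with the fewest reads (wild-type 1 and 2, knockout 2, at 1094908, 2556707 and 2753095 reads) are called shallow below. Bleomycin wild-type libraries 2 and 3 had similarly few reads, 2704349 and 2202990, and were kept when the shallow normal libraries were left out. That omission left normal wild type with only libraries 3 and 4, so depth and fewer libraries cannot be told apart in it. Of the 1907 miRNAs, the 325 at 10 CPM or more in at least 4 libraries were tested with limma on log2(CPM + 5), all 5 members among them. Called means a Benjamini-Hochberg adjusted p under 0.05 over these 325. Epithelial markers (7 miRNAs of the miR-200 family, miR-205-5p and miR-375-3p) summed to between 17398 and 98883 CPM and mesenchymal markers (5) to between 21553 and 142493, while leukocyte markers (5) stayed between 128 and 833 and endothelial markers (both arms of miR-126a) between 342 and 3647. No marker was at 0 in all 4 libraries of a group.

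The 5 members were abundant. Together they took between 1.03 and 2.19% of a library's reads, and the groups overlapped in this share. It was 1.4% ± 0.311 (SD, n = 4) in wild type and 1.72% ± 0.453 in knockout without injury, and 1.5% ± 0.357 and 1.39% ± 0.231 after bleomycin. Averaged over the 16 libraries, miR-24-3p ranked 21st of 1907 at 6280 CPM, miR-27b-3p 32nd at 3810, miR-23a-3p 46th at 2310, miR-27a-3p 54th at 1737 and miR-23b-3p 81st at 896. Mature miRNAs are of nearly 1 length, so levels can be set side by side, though capture of each sequence may differ. In normal wild type the order was miR-24-3p (7626 ± 1331 CPM), miR-27b-3p (2185 ± 699), miR-27a-3p (1903 ± 371), miR-23a-3p (1880 ± 981) and miR-23b-3p (396 ± 63.3). The libraries of the middle 3 overlapped, whereas every value of miR-24-3p lay above them and every value of miR-23b-3p below.

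After bleomycin in wild type the cluster b member miR-23b-3p rose 3.34-fold, the only one of the 5 members that was called. Of the other members, miR-27b-3p was higher in every bleomycin library but missed the threshold, miR-23a-3p and miR-27a-3p from cluster a overlapped between the groups, and miR-24-3p, made by both clusters, was lower in 3 of 4 libraries. In this comparison 34.5% of all 325 miRNAs were called, 20% higher and 14.5% lower, so 1 of 5 is not more than the background. The median log2 fold change of the members was 0.48, beside -0.004 for all 325.

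MiR-23b-3p, a miRNA described in endothelial cells and as a restraint on inflammatory signalling, stood at 481, 396, 331 and 375 CPM in normal wild-type libraries 1 to 4 and at 3796, 1068, 671 and 1112 CPM in bleomycin wild-type libraries 1 to 4. The lowest bleomycin library exceeded the highest normal one, and bleomycin library 1 stood far above the other three. The log2 fold change of CPM + 5 was 1.74 (SE 0.53, limma adjusted p = 0.0206). Without bleomycin library 1 it was 1.23 and no longer called (adjusted p = 0.0641), and without the 3 shallow normal libraries it was 1.89 with adjusted p = 0.0588. It also missed the threshold when all 1358 miRNAs above 0 were tested (adjusted p = 0.0683). With edgeR on the recovered reads it was called, at 2.41 (adjusted p = 0.0117).

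MiR-27b-3p, its neighbour in cluster b, stood at 1708, 1606, 2297 and 3129 CPM in normal wild type and at 3972, 4448, 3195 and 4228 CPM in bleomycin wild type. The groups did not overlap, but the lowest bleomycin library and the highest normal one were close. The log2 fold change was 0.90 (SE 0.40, limma adjusted p = 0.0877), with a 95% interval from 0.07 to 1.73 before adjustment. It passed the threshold with CPM recomputed without miR-21a-5p (1.27, adjusted p = 0.018), a scaling that moved the median of all miRNAs up by 0.35. MiR-27b-3p also passed with log2 reads as a covariate (0.92, adjusted p = 0.0252). The same held without normal knockout library 2 (0.90, adjusted p = 0.0243), which lies outside this comparison and left the fold change unchanged. Without the 3 shallow normal libraries it was 0.55 and not called (adjusted p = 0.289). Nor was it called with edgeR (0.96, adjusted p = 0.105) or with all 1358 miRNAs tested (adjusted p = 0.217).

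The 5p arm of the same hairpin gave a second reading of the locus. The 5p arms are the partner strands of the hairpins, mostly less abundant, and those with a call are shown with the seed in capitals.
mmu-miR-27b-5p: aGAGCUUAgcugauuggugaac
mmu-miR-27a-5p: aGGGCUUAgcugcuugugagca
MiR-27b-5p stood at 45.7, 38.7, 50.2 and 71.1 CPM in normal wild type and at 168, 129, 85.3 and 125 CPM in bleomycin wild type. All bleomycin libraries lay above all normal ones. It rose by 1.22 on the log2 scale (SE 0.39, limma adjusted p = 0.0233). It lost its call without normal wild-type library 1 or 2 or bleomycin wild-type library 1 or 4 (adjusted p 0.0505 to 0.0738), without the 3 shallow normal libraries (0.99, adjusted p = 0.101) and with all 1358 miRNAs tested (adjusted p = 0.0636).

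**Figure D2:**
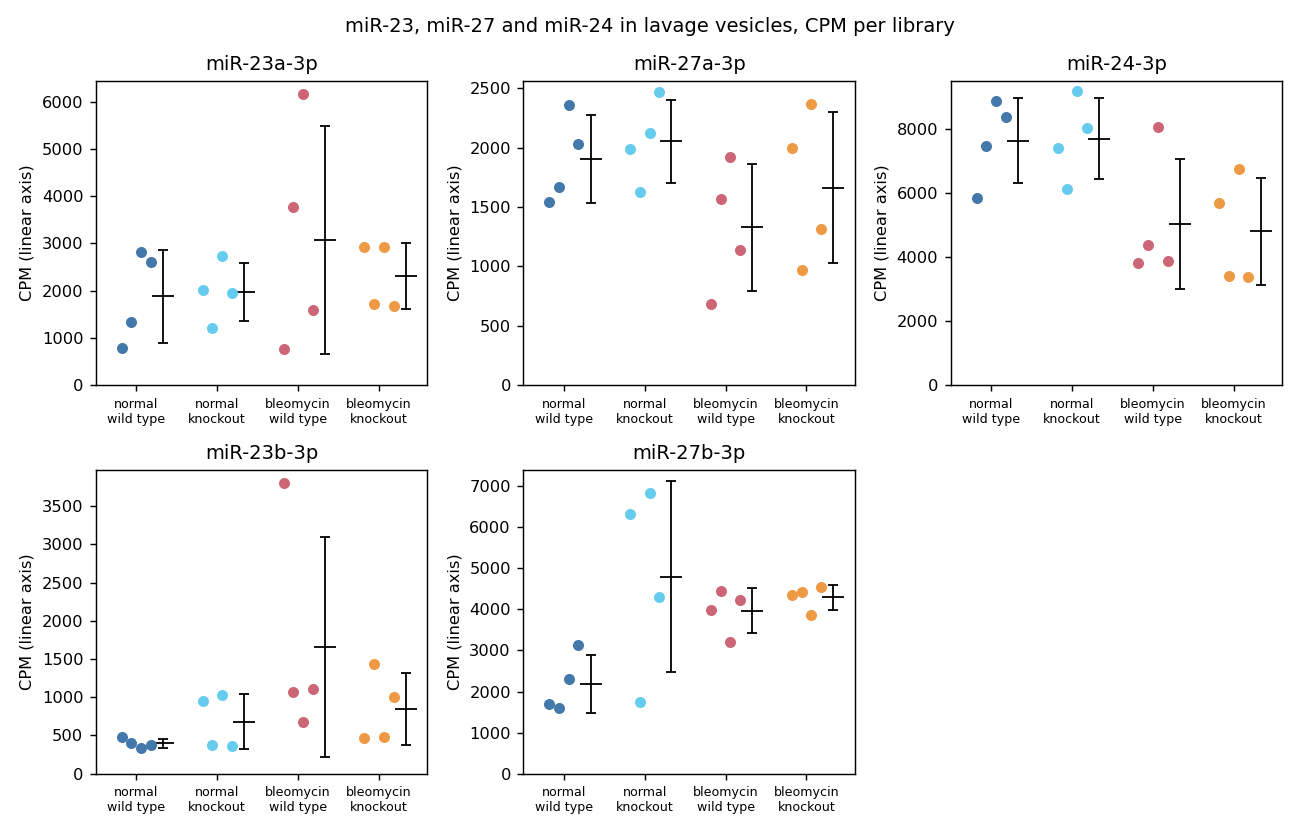
CPM (linear axis from 0) of the 5 members in each library, 4 points per group, with the mean and SD in black beside them. MiR-23b-3p and miR-27b-3p lie higher in all 4 bleomycin wild-type libraries than in any normal wild-type one, with miR-23b-3p at 3796 CPM in bleomycin library 1, while miR-27b-3p in normal knockout runs from 1736 to 6835 CPM.

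In cluster a, miR-23a-3p stood at 786, 1325, 2806 and 2603 CPM in normal wild type and at 767, 3778, 6160 and 1598 CPM after bleomycin. The bleomycin libraries spread more widely than the normal ones and included both the lowest and the highest value of the 8. Its log2 fold change was 0.48 (SE 0.56, limma adjusted p = 0.541), and -0.22 without the 3 shallow normal libraries. MiR-27a-3p stood at 1544, 1671, 2363 and 2035 CPM in normal wild type and at 685, 1570, 1921 and 1139 CPM after bleomycin, 2 of which lay below every normal library. Its log2 fold change was -0.60 (SE 0.39, adjusted p = 0.25).

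The 5p arm of miR-27a was called. MiR-27a-5p stood at 66.7, 118, 59.1 and 62.8 CPM in normal wild type and at 27, 14.8, 26.8 and 5.25 CPM after bleomycin, that is between 37 and 122 reads in the bleomycin libraries. Every bleomycin library lay below every normal one. It fell by 1.88 on the log2 scale (SE 0.37, limma adjusted p = 0.000816). The call was kept in every alternative run that tested it (adjusted p 0.000133 to 0.0112). At the 100 CPM filter it was not tested. For each read of miR-27a-5p there were 14.2 to 40.0 reads of miR-27a-3p in normal wild type and 25.3 to 217 in bleomycin wild type, which overlap. In knockout there were 31.6 to 86.5 in normal and 132 to 177 in bleomycin libraries, with no overlap. For miR-27b the same ratio of 3p to 5p was 37.4 to 45.8 and 23.7 to 37.4 in wild type and 45.5 to 53.0 and 34.9 to 50.1 in knockout. These ratios are descriptions, and the difference between the arms was not tested.

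MiR-24-3p stood at 5829, 7456, 8856 and 8362 CPM in normal wild type and at 3799, 4359, 8055 and 3870 CPM after bleomycin. Bleomycin library 3 lay among the normal libraries and the other three below all of them. The log2 fold change was -0.66 (SE 0.34, limma adjusted p = 0.146), and without bleomycin library 3 it was -0.91 and called (adjusted p = 0.034). Of the miR-24 partner arms, miR-24-2-5p of cluster a had a log2 fold change of 0.16 (SE 0.49, adjusted p = 0.827), and miR-24-1-5p of cluster b was under 10 CPM in every wild-type library.

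**Figure D3:**
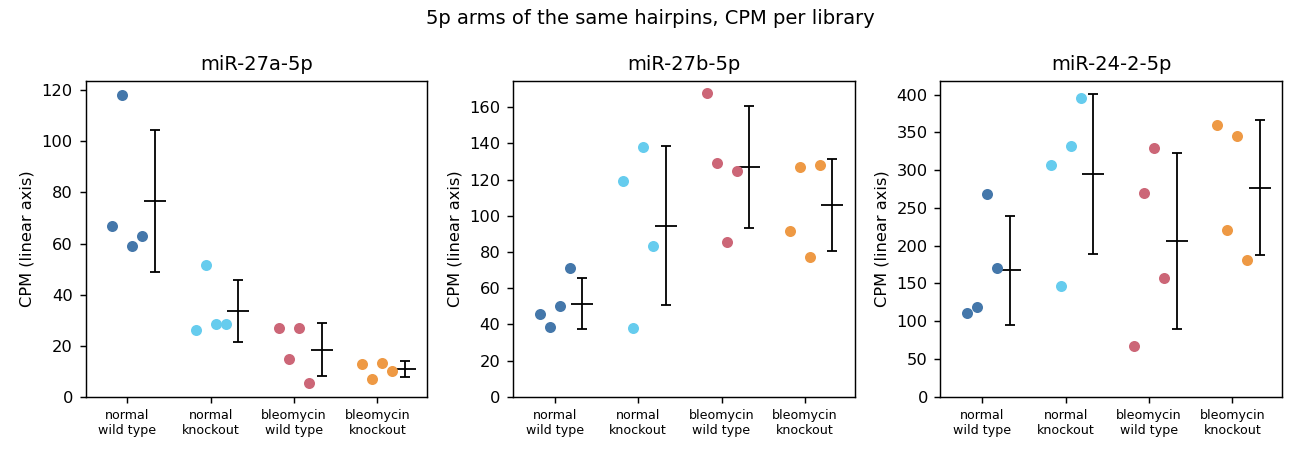
CPM (linear axis from 0) of the 3 tested 5p arms in each library, 4 points per group, with the mean and SD in black. MiR-27a-5p is lower in bleomycin than in normal libraries of the same genotype without overlap, and miR-27b-5p is higher in bleomycin wild type (85.3 to 168 CPM) than in normal wild type (38.7 to 71.1 CPM).

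In the knockout, bleomycin left all 5 members uncalled, where 23.4% of the 325 miRNAs were called, 14.8% higher and 8.62% lower. The members' median log2 fold change was 0.02 beside 0.11 for all 325. MiR-24-3p came nearest: it stood at 7400, 6129, 9174 and 8029 CPM in normal knockout and at 5669, 3394, 6728 and 3371 CPM in bleomycin knockout. All bleomycin libraries but the third lay below all normal ones. Its log2 fold change was -0.73 (SE 0.34, limma adjusted p = 0.138), and -0.88 with a call under median-of-ratios scaling (adjusted p = 0.0247), which moved the median of all miRNAs by -0.14.

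Neither cluster b member separated the knockout groups. MiR-23b-3p stood at 957, 381, 1027 and 365 CPM in normal knockout and at 463, 1436, 476 and 1005 CPM in bleomycin knockout (log2 fold change 0.30, SE 0.53, limma adjusted p = 0.734). Both groups held high and low libraries. MiR-27b-3p stood at 6324, 1736, 6835 and 4289 CPM in normal knockout and at 4353, 4415, 3862 and 4554 CPM in bleomycin knockout. The bleomycin libraries lay close together, inside the range of the normal ones. The log2 fold change was 0.02 (SE 0.40, adjusted p = 0.98) with a 95% interval from -0.81 to 0.85.

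Cluster a in the knockout was likewise uncalled for its 3p arms. MiR-23a-3p stood at 2005, 1215, 2724 and 1958 CPM in normal knockout and at 2912, 1723, 2920 and 1673 CPM after bleomycin (log2 fold change 0.23, SE 0.56, limma adjusted p = 0.792). MiR-27a-3p stood at 1988, 1629, 2124 and 2472 CPM and at 1997, 968, 2371 and 1315 CPM (log2 fold change -0.37, SE 0.39, adjusted p = 0.53). In bleomycin knockout, libraries 1 and 3 were above libraries 2 and 4 for miR-23a-3p, miR-27a-3p and miR-24-3p, and below them for both cluster b members.

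MiR-27a-5p fell in the knockout as well. It stood at 26, 51.6, 28.3 and 28.6 CPM in normal knockout and at 13, 6.92, 13.4 and 9.94 CPM in bleomycin knockout, with no overlap. The log2 change was -1.26 (SE 0.37, limma adjusted p = 0.0179). The call was lost without normal knockout library 2 (-1.06, adjusted p = 0.0504) or bleomycin knockout library 2 (-1.13, adjusted p = 0.0633). MiR-27b-5p, 119, 38.1, 138 and 83.2 CPM in normal knockout, was at 91.6, 127, 77.2 and 128 CPM after bleomycin (log2 fold change 0.26, SE 0.39, adjusted p = 0.673).

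Whether the response to bleomycin differed with genotype was tested directly. The log2 difference between the knockout and the wild-type response was -1.44 for miR-23b-3p (SE 0.75, limma adjusted p = 0.623) and -0.88 for miR-27b-3p (SE 0.56, adjusted p = 0.661). For miR-27a-3p it was 0.22 (SE 0.55, adjusted p = 0.929), for miR-23a-3p -0.25 (SE 0.80, adjusted p = 0.929) and for miR-24-3p -0.07 (SE 0.48, adjusted p = 0.962). None of the 5 passed, as none of the 325 did (0% called by limma and 0 by edgeR), while 24 had an unadjusted p under 0.05 in limma. The call of miR-23b-3p in wild type alone is thus not shown to be a difference between genotypes.

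**Figure D4:**
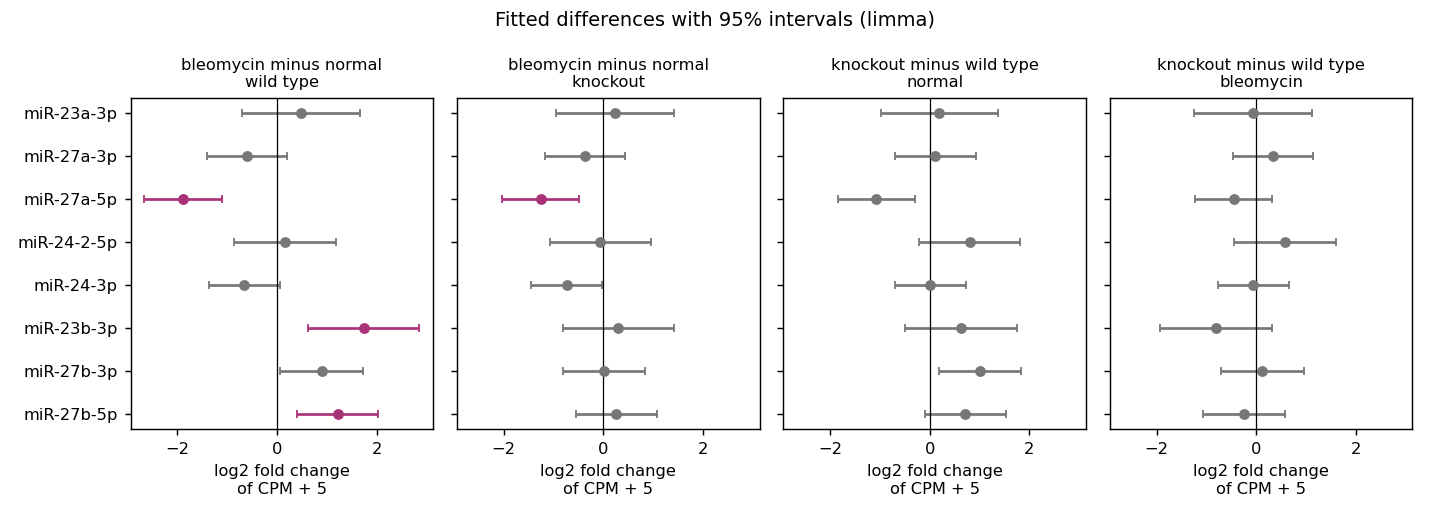
Log2 fold change of CPM + 5 with its 95% interval for the 5 members and 3 partner arms in 4 comparisons, with calls at an adjusted p under 0.05 in purple and the rest in grey. Calls appear for miR-27a-5p in both genotypes after bleomycin and for miR-23b-3p and miR-27b-5p in wild type, and no call appears between genotypes.

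The knockout was compared with wild type in each condition. In normal lavage no member was called, and neither was any of the 325 miRNAs (0% called by limma and 0 by edgeR, 58 with an unadjusted p under 0.05 in limma). MiR-27b-3p had the smallest p of the members: the knockout had 4796 ± 2317 CPM (SD, n = 4) and wild type 2185 ± 699, or 1.01 on the log2 scale (SE 0.40, limma adjusted p = 0.253). Knockout libraries 1, 3 and 4 lay above every wild-type library, and knockout library 2, a shallow one, lay at 1736 CPM among them. Without that library the log2 fold change was 1.43 and called (adjusted p = 0.00962), as were miR-27b-5p (1.07, adjusted p = 0.0421) and miR-27a-5p (-1.27, adjusted p = 0.0338). With that library left out, 63 of 322 miRNAs were called.

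Among the 8 normal libraries, some members were lower in the shallow libraries than in the deeper ones. MiR-27b-3p was at 1606 to 1736 CPM in the 3 shallow libraries and at 2297 to 6835 CPM in the 5 deeper ones. MiR-23a-3p was at 786 to 1325 against 1958 to 2806 CPM, and miR-27a-3p at 1544 to 1671 against 1988 to 2472 CPM, neither overlapping. MiR-23b-3p (381 to 481 against 331 to 1027 CPM) and miR-24-3p (5829 to 7456 against 7400 to 9174 CPM) overlapped. Of the 5p arms, miR-27b-5p was at 38.1 to 45.7 against 50.2 to 138 CPM and miR-27a-5p at 51.6 to 118 against 26 to 62.8 CPM. Whether the other tested miRNAs differed in the same way was not examined, so the pattern is not shown to be specific to these members. Bleomycin wild-type libraries 2 and 3 had similarly few reads. There miR-23a-3p was at 3778 and 6160 CPM, miR-27b-3p at 4448 and 3195 CPM and miR-27b-5p at 129 and 85.3 CPM. MiR-27a-3p, at 1570 and 1921 CPM, lay below the deeper normal libraries. These libraries also differ by bleomycin, and the part of depth was not tested. Normal knockout held 1 shallow library and normal wild type 2. With log2 reads as a covariate the knockout difference of miR-27b-3p in normal lavage was 0.60 and not called (adjusted p = 0.841).

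After bleomycin no member was called between the genotypes, where 0.615% of the 325 miRNAs were. That share is 2 rows, miR-142a-3p and miR-142b, which had the same fitted values (1.47, limma adjusted p = 0.023) and do not count as separate. The knockout minus wild-type log2 difference was -0.81 for miR-23b-3p (SE 0.53, limma adjusted p = 0.67, 845 ± 468 against 1662 ± 1437 CPM), 0.34 for miR-27a-3p (SE 0.39, adjusted p = 0.87), 0.13 for miR-27b-3p (SE 0.40, adjusted p = 0.924), -0.06 for miR-23a-3p (SE 0.56, adjusted p = 0.986) and -0.06 for miR-24-3p (SE 0.34, adjusted p = 0.969). The 95% interval ran from -0.70 to 0.95 for miR-27b-3p and from -1.93 to 0.31 for miR-23b-3p.

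A ratio between members within a library does not depend on the CPM total, and 4 such ratios were compared in 4 pairs of groups with a two-sided exact permutation test of 70 arrangements, adjusted over the 16 tests. In normal wild type miR-27a-3p and miR-27b-3p were near parity, with linear ratios of 0.904, 1.04, 1.03 and 0.65. After bleomycin the ratios were 0.172, 0.353, 0.601 and 0.269, all below the normal ones. The mean log2 ratio differed by -1.49 (exact permutation p = 0.0286, the smallest possible, adjusted p = 0.152). In normal knockout the ratios were 0.314, 0.938, 0.311 and 0.576, and in bleomycin knockout 0.459, 0.219, 0.614 and 0.289, with overlap (log2 difference -0.39, exact permutation p = 0.429, adjusted p = 0.598).

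The ratio of miR-24-3p to the summed miR-23 pair was lower after bleomycin in both genotypes. It was 4.60, 4.33, 2.82 and 2.81 in normal wild type and 0.832, 0.900, 1.18 and 1.43 after bleomycin. In knockout it was 2.50, 3.84, 2.45 and 3.46 in normal and 1.68, 1.07, 1.98 and 1.26 in bleomycin libraries. Neither pair of groups overlapped, with log2 differences of -1.74 and -1.04 (exact permutation p = 0.0286 for each, adjusted p = 0.152 for each). None of the 16 tests passed after adjustment. The smallest possible p, 0.0286, cannot pass the adjustment over 16 tests when only a few ratios reach it. The lack of calls therefore decides nothing about these ratios.

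**Figure D5:**
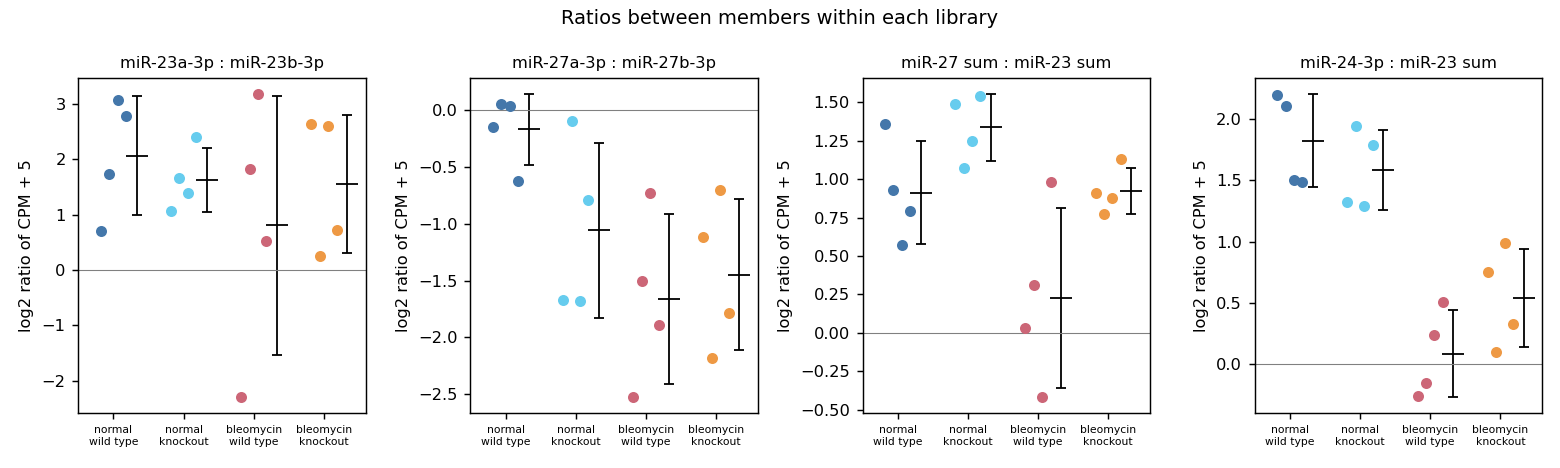
Log2 ratio of CPM + 5 between members within each library, 4 points per group, with the mean and SD in black and equal levels marked by the grey line at 0. The ratio of miR-24-3p to the miR-23 pair is lower in bleomycin than in normal libraries of the same genotype, and that of miR-27a-3p to miR-27b-3p is lower in bleomycin than in normal wild type.

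The other ratios overlapped between all groups compared. MiR-23a-3p exceeded miR-23b-3p in 15 of 16 libraries, by 1.20 to 9.18 times, and bleomycin wild-type library 1 was the exception at 0.202. That library moved the bleomycin difference of this log2 ratio in wild type from -0.23 without it to -1.26 with it (exact permutation p = 0.457, adjusted p = 0.598). The summed miR-27 pair against the summed miR-23 pair had a log2 difference after bleomycin of -0.68 in wild type (exact permutation p = 0.114, adjusted p = 0.229) and -0.42 in knockout (exact permutation p = 0.0571, adjusted p = 0.229).

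Members of 1 cluster were not tightly tied across the 16 libraries. On the log2 scale Pearson's r over these libraries, which share depth and group, was 0.583 between miR-23a-3p and miR-27a-3p and 0.535 between miR-23b-3p and miR-27b-3p. It was 0.834 between miR-24-3p and miR-27a-3p, -0.181 between miR-24-3p and miR-27b-3p and -0.805 between miR-27a-3p and miR-23b-3p. The miRNAs outside the members with the highest r were miR-181c-3p for miR-23a-3p (0.888), miR-29a-3p for miR-27a-3p (0.932), let-7f-5p for miR-23b-3p (0.859), miR-199a-3p for miR-27b-3p (0.93) and, leaving out its antisense copy miR-3074-5p, miR-30a-5p for miR-24-3p (0.923). These are descriptions, with no test.

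Of the 9 other arms and antisense miRNAs of these hairpins, 5 passed the filter, and 2 of those repeat the reads of another (miR-3074-5p of miR-24-3p, miR-3074-2-3p of miR-24-2-5p). In wild type after bleomycin 1 of the 5 rose and 1 fell, where 34.5% of all 325 were called, and in knockout 1 fell, where 23.4% were. The calls were miR-27b-5p and miR-27a-5p in wild type and miR-27a-5p in knockout, and none was on a repeated row. With repeated rows and so few distinct arms, these shares cannot be read against the background. Those below the filter were miR-23a-5p (0 to 4.57 CPM), miR-23b-5p (0.857 to 12.8 CPM), miR-24-1-5p (1.83 to 20.7 CPM) and miR-3074-1-3p, whose counts differed from those of miR-24-1-5p by 1 read in 1 library. A value of 0 allows up to 3 reads, which is 0.234 to 2.74 CPM depending on the library.

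Of 10 miRNAs known for roles in blood vessel growth, 9 were tested. In wild type after bleomycin 3 rose and 1 fell (34.5% of all 325 miRNAs were called, 20% higher and 14.5% lower), and in knockout 2 rose and 1 fell (23.4%, 14.8% higher and 8.62% lower). The list's median log2 fold change was 0.10 in wild type and 0.05 in knockout, beside -0.004 and 0.11 for all 325. MiR-132-3p, which growth factors induce in endothelium, rose by 2.82 (SE 0.39, limma adjusted p = 4.24e-05) in wild type and 2.30 (SE 0.39, adjusted p = 0.000333) in knockout. In wild type miR-126a-3p, the endothelial miRNA, rose by 1.96 (SE 0.64, adjusted p = 0.0237), miR-17-5p, of a cluster known for promoting cell growth, rose by 1.04 (SE 0.39, adjusted p = 0.0464) and miR-92a-3p fell by 1.85 (SE 0.59, adjusted p = 0.0233). These 3 calls were lost without the 3 shallow normal libraries (log2 fold changes 1.38, 1.15 and -1.08, adjusted p = 0.127, 0.116 and 0.214) and with no filter. That omission also leaves fewer normal wild-type libraries, and the rise of miR-17-5p was not smaller in it. Leaving out 1 library ended the call of miR-126a-3p for normal wild-type library 1 or 2 or bleomycin wild-type library 1 or 4 (adjusted p 0.0704 to 0.0773), of miR-92a-3p for normal wild-type library 1 or 2 or bleomycin wild-type library 1, 2 or 4 (0.0555 to 0.0829), and of miR-17-5p for 12 of the 16 libraries (0.054 to 0.12). In knockout miR-17-5p rose by 1.62 (adjusted p = 0.00536), a call kept in every alternative run, and miR-222-3p, named because it was the only fall of the list there, fell by 1.56 (adjusted p = 0.011). In knockout miR-92a-3p was at -0.97 (adjusted p = 0.25) and was called with log2 reads as a covariate (-1.55, adjusted p = 0.00476). There miR-126a-3p stood at 0.05 (SE 0.64, adjusted p = 0.966) and its sign turned under median-of-ratios scaling (-0.09).

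Beside the rise of miR-23b-3p and miR-27b-5p and the fall of miR-27a-5p in wild type, summed endothelial markers were at 342 to 1228 CPM in normal and 1068 to 3151 CPM in bleomycin libraries (1 of 2 arms called higher), and epithelial markers at 59771 to 98883 and 17398 to 53786 CPM (4 of 7 called lower). Mesenchymal markers had 3 of 5 called higher, with sums of 36374 to 82520 and 36136 to 52140 CPM. The uncalled mesenchymal markers had log2 fold changes of -0.54 and -0.78. Leukocyte markers had 2 of 5 called higher and 1 lower, at 197 to 393 and 179 to 833 CPM. Erythrocyte markers had 1 of 2 tested called higher, at 160 to 2632 and 362 to 6108 CPM. These counts stand beside 34.5% called among all 325 miRNAs, 20% higher and 14.5% lower. In knockout, where miR-27a-5p fell, epithelial markers had 1 of 7 called lower (42208 to 67703 CPM in normal and 34618 to 57855 CPM in bleomycin libraries), leukocyte markers 3 of 5 higher (128 to 281 and 224 to 522 CPM) and endothelial markers none called (407 to 3647 and 977 to 2203 CPM). Mesenchymal markers there had 1 of 5 called higher (21553 to 142493 and 39341 to 46754 CPM) and erythrocyte markers 1 of 2 tested higher (55.9 to 1492 and 554 to 2963 CPM), beside 23.4% called among all 325, 14.8% higher and 8.62% lower. The part of these cell types and of depth in the results was not tested.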

How the data were processed

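The authors deposited 1 table of CPM per mature miRNA and library; each column sums to 1000000. All values were whole multiples of their column's smallest step (100% within 0.001 of a whole number), so whole reads were recovered. Per the submitters' processing notes, Bowtie2 2.2.3 and GRCh38, a human build, were named without a role; no counter, strand setting or miRBase release is given. Columns were matched to samples by title. After a filter (10 CPM in at least 4 libraries, 325 kept), log2(CPM + 5) was fitted with limma 3.58.1 in R 4.3.3 (4 group means, eBayes with a trend), 5 comparisons, Benjamini-Hochberg adjustment at 0.05 within each. The fit was tested on simulated data. Fold changes are of CPM + 5 and are understated for low miRNAs. Ratios used exact permutation tests. The quasi-likelihood test of edgeR 4.0.16 on whole reads, other pseudocounts (1 and 20), filters, scalings and covariates, a replicate block and leaving out each library were alternatives. Members, lists and the rule for named miRNAs (the 5 members, the other arms by count and range, up to 4 of the blood vessel list by smallest p, the most correlated miRNAs) were chosen with earlier results of these data known. Sequences and positions are from RefSeq on GRCm38.p6, matched by name, with overlaps from GENCODE M21. Limits from counts of 0 cover counting error only.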

Additional observations from a re-analysis of the deposited data

Results flagged for a closer look

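Of 36 sets of 4 libraries (5 members and 4 ratios in 4 groups), 2 held a library far from the rest by Dixon's criterion. Members were examined as CPM and ratios on the log2 scale. The members were not examined on the log2 scale that limma used. If values are normally distributed, chance marks about 1 in 20 such sets, so 2 of 36 is close to what chance gives. MiR-23b-3p in bleomycin wild-type library 1 was at 3796 CPM, where the next highest was 1112 CPM. MiR-24-3p in bleomycin wild-type library 3 was at 8055 CPM, where the next highest was 4359 CPM. Each decides a call given above.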

How the results depend on the processing

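Calls over all 325 miRNAs numbered 112 after bleomycin in wild type, 76 after bleomycin in knockout, 0 between genotypes in normal lavage, 2 between genotypes after bleomycin and 0 for the interaction. The 2 between genotypes were miR-142a-3p and miR-142b, with the same fitted values. At 100 CPM (174 tested) they were 60, 38 and, between genotypes after bleomycin, 0, and fewer miRNAs could be called. The last count was also 0 with pseudocount 1, with edgeR and with the replicate block, and 4 with no filter. Without the 3 shallow normal libraries wild type had 68. The interaction had 2 with CPM without miR-21a-5p and with log2 reads as a covariate. Leaving out 1 library gave 72 to 133 in wild type, 56 to 84 in knockout, 0 to 63 between genotypes in normal lavage, 0 to 3 after bleomycin and 0 to 2 for the interaction. Same-numbered libraries did not pair: their deviations correlated between -0.584 and 0.798, and in no comparison were all 4 above 0.1. The replicate block gave 105, 72, 0, 0 and 0 calls.

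Of 1243 alternative values for single miRNAs, 1137 kept direction and call, 39 lost a call, 9 gained one and 58 changed sign. Sign changes touched only uncalled values, and the cause was not tested. In knockout after bleomycin, miR-27b-3p was -0.128 with median-of-ratios scaling, -0.0453 with edgeR and -0.411 without the 3 shallow normal libraries. MiR-126a-3p was -0.0928, -0.142 and -0.579 there. With CPM without miR-21a-5p, miR-27a-3p was 0.0146 and miR-24-2-5p 0.319 (0.0658 with the covariate). Without the shallow libraries miR-27b-5p was -0.0987. In wild type after bleomycin, the same omission gave -0.224 for miR-23a-3p and -0.277 for miR-24-2-5p. Between genotypes in normal lavage, miR-23a-3p was -0.0611, -0.0197 and -0.294 and miR-24-3p -0.0765, -0.0247 and -0.0751 with edgeR, the covariate and the omission, the last giving -0.00482 for miR-27a-3p. After bleomycin, miR-27b-3p between genotypes was -0.0102 with edgeR and -0.0128 with the covariate. For the interaction the omission gave 0.238 for miR-23a-3p and 0.0145 for miR-24-3p.

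Leaving out 1 library turned the sign of further uncalled values, over these ranges. In wild type after bleomycin miR-24-2-5p ran from -0.133 to 0.602. In knockout after bleomycin miR-23b-3p ran from -0.00723 to 0.552, miR-27b-3p from -0.411 to 0.247, miR-126a-3p from -0.579 to 0.501, miR-24-2-5p from -0.362 to 0.116 and miR-27b-5p from -0.0987 to 0.479. Between genotypes in normal lavage miR-23a-3p ran from -0.166 to 0.443 and miR-24-3p from -0.11 to 0.117, and after bleomycin from -0.584 to 0.414 and from -0.246 to 0.191. For the interaction miR-23a-3p ran from -0.776 to 0.222, miR-24-3p from -0.26 to 0.178, miR-27a-3p from -0.0594 to 0.455 and miR-24-2-5p from -0.666 to 0.0699. The log2 ratio of miR-23a-3p to miR-23b-3p ran from -0.43 to 0.36 after bleomycin in knockout and from -0.28 to 1.55 between genotypes after bleomycin, and that of miR-27a-3p to miR-27b-3p from -0.08 to 0.52 in the latter. The 13 other ratio differences kept their sign. None of the 16 was called, and the smallest possible permutation p did not allow a call for a few ratios alone.

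Depth limits the low arms most: 1 read was worth 0.0779 to 0.913 CPM. With 4 libraries a group, intervals of the members span more than 1 unit of log2.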
